A study of Rattus norvegicus with 9 samples.

Results

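The insulin-like growth factor (IGF) family was followed in the supraoptic nucleus of dehydrated rats through every probe set that the platform annotation gives to exactly 1 of 9 genes: the ligands Igf1 and Igf2, the receptor Igf1r and the binding proteins Igfbp1 to Igfbp6. The rule used no measured value and found 23 of the 8740 probe sets that are not array controls. They belong to 8 of the 9 genes, of 4736 genes with a probe set of 1 symbol, and Igfbp4 is not analysed here. Igf2 has 6 probe sets, Igf1 has 5, Igfbp2 and Igfbp5 have 3 each, Igf1r and Igfbp3 have 2 each, and Igfbp1 and Igfbp6 have 1 each. A probe set is a group of short DNA probes on the array that report on 1 transcript or a few related ones, and its signal is a fluorescence intensity in arbitrary units.

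All rats were Sprague Dawley males, between 10 and 12 weeks old. Control rats, rats dehydrated for 1 day and rats dehydrated for 3 days were each measured on 3 arrays, marked a, b and c, so there were 9 arrays in all. The labels do not say how dehydration was produced, or whether an array carries RNA of 1 animal or of a pool, so the p-values measure only the spread between these arrays, which may be technical. The question was whether the family's transcripts differ between dehydrated and control rats, and between the durations of dehydration.

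IGF1 and IGF2 are small secreted proteins that act on cells mainly through the type 1 IGF receptor, a tyrosine kinase that signals through insulin receptor substrates to the PI3 kinase and MAP kinase cascades. Binding proteins hold the ligands outside cells, where they prolong their life or keep them from the receptor, and proteases that cut the binding proteins release the ligands again. In the brain, Igf2 is made mainly by the choroid plexus and meninges, Igfbp2 by astrocytes and by the same linings, and Igf1 by some neurons and by glia. The supraoptic nucleus lies at the base of the brain next to the meninges, and its large neurons make vasopressin and oxytocin, whose output rises when an animal lacks water.

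The tissue label was checked against Avp and Oxt, the vasopressin and oxytocin genes. Avp ranged from 1622 to 5678 and Oxt from 208 to 4356 over the arrays, so both markers were present on each of the 9. Control c and 1-day c stood apart: their highest signals were 2105 and 2239, against 3867 to 6295 on the others, and Oxt read 208 on control c and 272 on 1-day c. For the tested members, a printed fold change that turns its sign or moves by over 1.5 times without these 2 arrays is also given without them. A bulk signal cannot tell fewer cells of a type from less RNA per cell.

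Signals were compared as log2(signal + 4) with limma, and fold changes on this scale understate the change of dim probe sets. Of the 23 probe sets of the family, 12 had a mean signal over the 9 arrays of at least 23.1, the 40th percentile of all probe sets, and were tested among 5247. None of the 12 passed an adjusted p of 0.05 in any comparison: the smallest adjusted p (limma) was 1.00 for 1 day against control, 1.00 for 3 days against control and 0.998 for 3 days against 1 day. Over all 5247 tested probe sets the share called was also 0% in each comparison, and 0% by the F test over the 3 groups. At an unadjusted p of 0.05 (limma), 0 of the 12 passed in any comparison. The background was 1.01% at 1 day against control, 1.72% at 3 days against control and 1.83% at 3 days against 1 day. These shares were below the 0.05 that the threshold alone would give. With the array letter as a block they were 2.59%, 5.15% and 5.24%, and of the 12 only Igfbp2 M91595exon_s_at passed, at 3 days against 1 day. Printed standard errors and intervals are from the fit without the block unless it is named. The family therefore gave no call, and neither did any other probe set.

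The direction of the 12 was mixed. At 1 day against control 7 were higher and 5 lower, and their median log2 fold change was 0.02, as was the median over all tested probe sets. Against control, 3 days gave 7 higher and 5 lower, with a median of 0.18 against 0.02 for all. Between 3 days and 1 day 6 were higher and 6 lower, with a median of 0.02 against 0.00 for all. Without control c and 1-day c, 10 were higher and 2 lower at 1 day against control (median 0.22, against 0.02 for all). In the same setting, which keeps 3-day c, 7 were higher and 5 lower at 3 days against control (median 0.06, against -0.02). There 4 were higher and 8 lower at 3 days against 1 day (median -0.15, against -0.04). Standard errors of the fold changes in the fit with all arrays had a median of 0.42 for the 12 and 0.40 for all. In 0 of 12 did the arrays of the groups compared fail to overlap, where the background share without overlap was 4.21% at 1 day against control, 7.74% at 3 days against control and 5.72% at 3 days against 1 day.

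**Figure D1:**
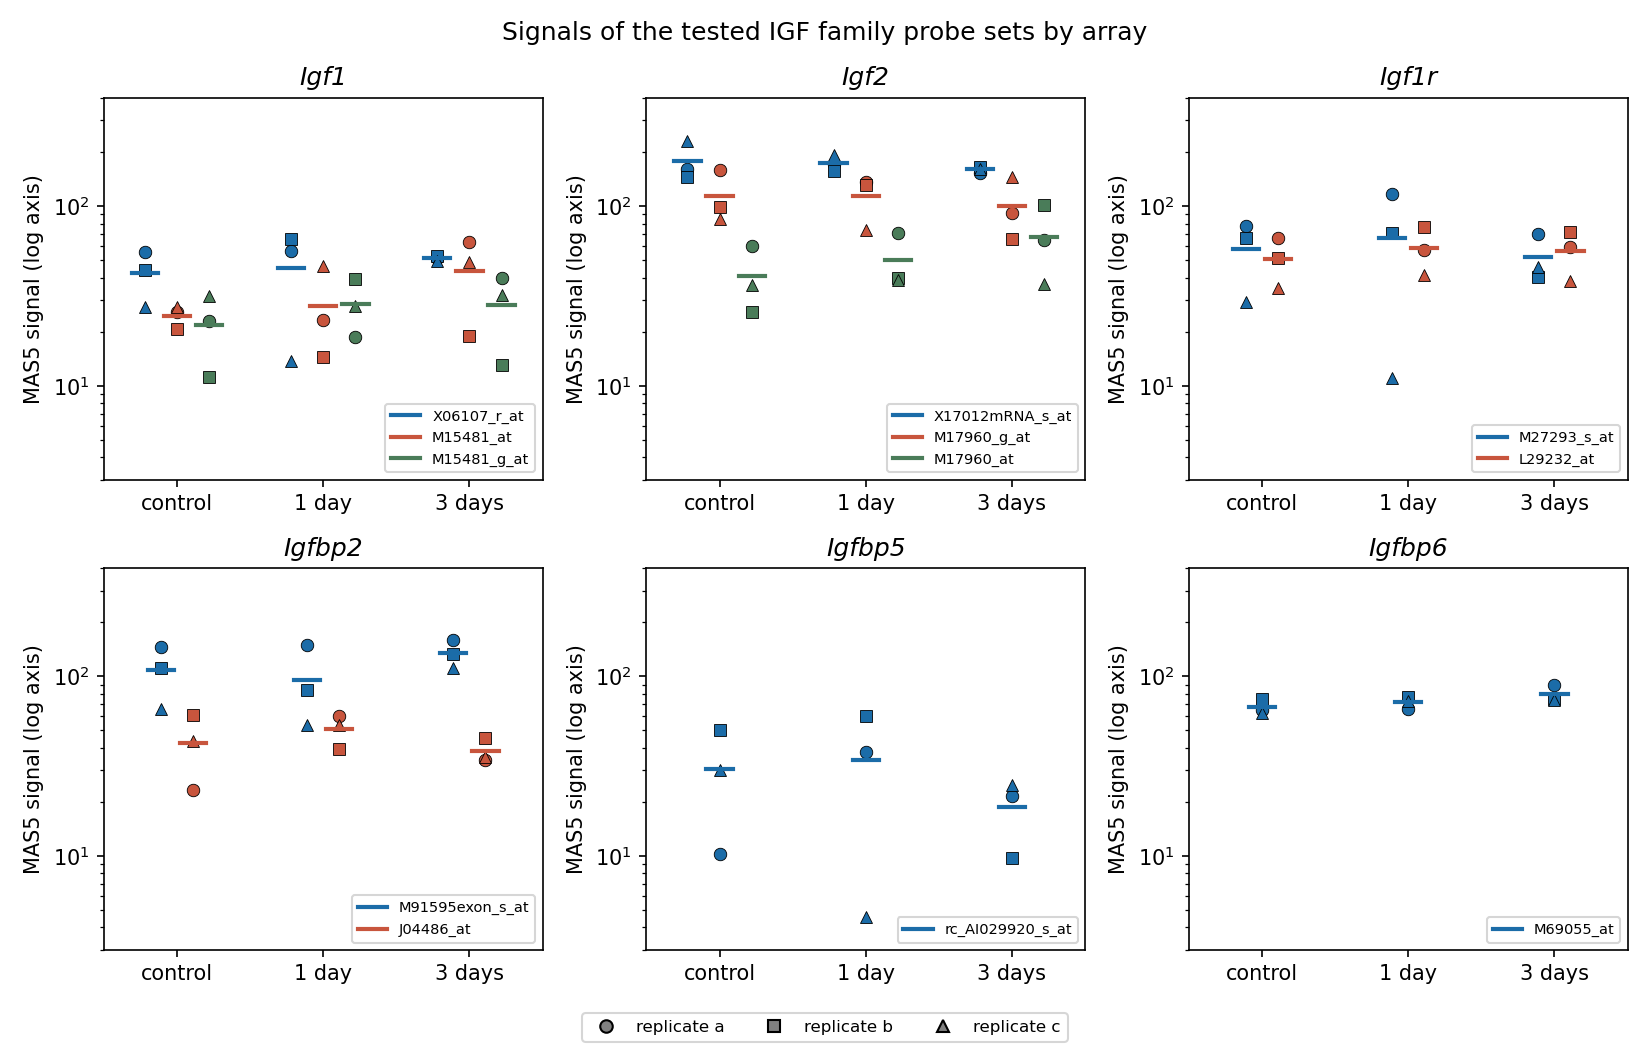
MAS5 signal (log axis) of the 12 tested probe sets of the IGF family on control, 1-day and 3-day arrays, 1 panel per gene and 1 colour per probe set. Symbols mark replicates a, b and c and horizontal bars mark group means (n = 3). In every panel the 3 groups overlap, and Igfbp6 shows the tightest groups, with all 9 arrays between 62.3 and 89.4.

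Among the ligands, the brightest Igf2 probe set held one of the steadiest readings of the family. X17012mRNA_s_at read 160.5, 145.2 and 231.4 on control arrays a, b and c, 172.6, 157.6 and 191.7 on the 1-day arrays and 153.4, 165.4 and 161.6 on the 3-day arrays. Control c was the highest of the 9, and the groups overlapped. The group means were 179.0 ± 46.0, 174.0 ± 17.1 and 160.1 ± 6.13 (SD, n = 3 each) in control, 1-day and 3-day rats. The log2 fold change was -0.02 at 1 day (95% interval -0.57 to 0.53) and -0.13 at 3 days (-0.68 to 0.42), both against control. A change of more than about 0.68 in either direction therefore lay outside both intervals for this probe set. Its sign depended on the 2 arrays that stood apart: without them the values were 0.11 at 1 day and 0.067 at 3 days.

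The other tested Igf2 probe sets varied more. M17960_g_at read 158.8, 98.3 and 84.9 in control, 137.0, 130.8 and 73.9 at 1 day and 91.8, 65.9 and 144.6 at 3 days. M17960_at read 60, 25.7 and 36.4 in control, 71.3, 39.8 and 38.7 at 1 day and 64.5, 100.9 and 36.9 at 3 days. Both spanned most of their range within the 3-day group, where array c of M17960_g_at and array b of M17960_at were the highest. In 3-day against control rats M17960_at differed by 0.65 (-0.33 to 1.62) and M17960_g_at by -0.19 (-1.02 to 0.64), so the point estimates of probe sets named after the same sequence had opposite signs. Without control c and 1-day c the value of M17960_g_at was -0.37. M17960_at was higher at 3 days against control in each of the 3 letter pairs (array a against a, and so on), but by 1.82 in pair b and by 0.10 in pair a and 0.02 in pair c.

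Igf1 was read by 3 tested probe sets, each of which overlapped between all groups. X06107_r_at read 55.3, 44.0 and 27.5 in control, 56.4, 65.6 and 13.8 at 1 day and 51.5, 52.9 and 49.8 at 3 days. The lowest arrays were 1-day c and control c, and the 3-day arrays were the closest together (51.4 ± 1.55, SD, n = 3). Its log2 fold change was -0.09 ± 0.50 (SE) at 1 day and 0.31 ± 0.50 at 3 days against control, and these were 0.28 at 1 day and 0.05 at 3 days without the 2 arrays that stood apart.

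M15481_at read 25.8, 20.7 and 27.3 in control, 23.1, 14.5 and 46.2 at 1 day and 63.0, 19.0 and 49.1 at 3 days. On this probe set 3-day a and c and 1-day c were above every control array, while 3-day b was below all of them. M15481_g_at, named after the same sequence, read 22.8, 11.2 and 31.5 in control, 18.7, 39.2 and 27.8 at 1 day and 39.7, 13.0 and 32.1 at 3 days. Array 3-day b was again the lowest of its group. The log2 fold changes at 3 days against control were 0.61 (-0.53 to 1.75) for M15481_at and 0.30 (-0.87 to 1.46) for M15481_g_at, and the second was 0.57 without control c and 1-day c. The point estimates of the 3 tested Igf1 probe sets at 3 days against control thus ran from 0.30 to 0.61, and each interval included 0. They come from the same arrays, and the last pair share a target.

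The receptor gene Igf1r had 2 tested probe sets. M27293_s_at read 77.6, 66.6 and 29.1 in control, 117.2, 71.3 and 11.1 at 1 day and 69.7, 40.4 and 45.6 at 3 days. Array 1-day a was the highest and 1-day c the lowest of the 9, and control c was the next lowest, so 1 group held both ends of the range. Its log2 fold changes were -0.16 at 1 day (-1.65 to 1.34) and -0.08 at 3 days (-1.57 to 1.42) against control. Without control c and 1-day c, the 1-day value was 0.33, the 3-day value -0.48, and that of 3 days against 1 day -0.81. L29232_at read 66.3, 51.3 and 34.8 in control, 57.1, 76.2 and 41.1 at 1 day and 58.9, 71.9 and 38.1 at 3 days. Here array c was the lowest in each group. Its log2 fold changes were 0.18 (-0.63 to 1.00) at 1 day and 0.14 (-0.68 to 0.96) at 3 days against control. The 3-day value was -0.090 without control c and 1-day c but with the low 3-day c kept. In letter pairs a, b and c it was -0.16, 0.46 and 0.12.

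**Figure D2:**
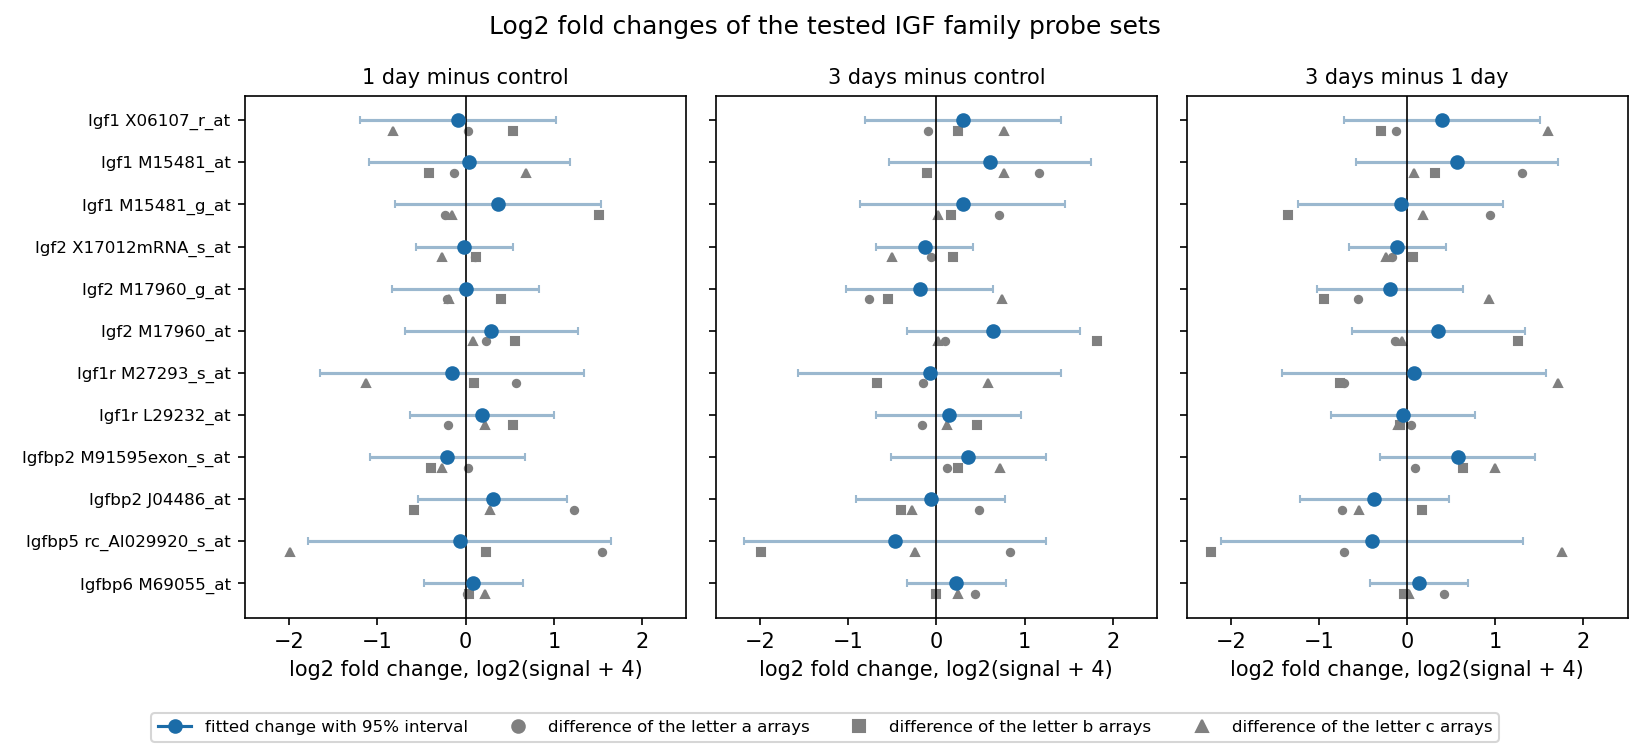
Log2 fold change on the log2(signal + 4) scale for the 12 tested probe sets in the 3 comparisons. Blue points are fitted changes with 95% intervals from limma, and grey symbols are the differences between arrays with the same letter. Every interval crosses 0, and the fitted changes lie between -0.47 and 0.65.

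Of the binding proteins, Igfbp6, which binds IGF2 more tightly than IGF1, had the most even signal. M69055_at read 65.1, 74.9 and 62.3 in control, 65.9, 76.9 and 72.9 at 1 day and 89.4, 74.8 and 74.3 at 3 days. Array 3-day a was the highest, control b lay within the 3-day range, and the groups overlapped. The means were 67.4 ± 6.62, 71.9 ± 5.57 and 79.5 ± 8.58 (SD, n = 3 each) in control, 1-day and 3-day rats. The means were ordered control, 1 day, 3 days, but the arrays of neighbouring groups overlapped, and no difference between groups passed the test. The log2 fold change at 3 days against control was 0.22 ± 0.25 (SE), with an interval of -0.34 to 0.78. The residual SD of this probe set within groups was 0.13, at the 0.80th percentile of the 5247 tested, while limma moderates its standard error toward the spread of probe sets of like brightness.

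Igfbp2, a binding protein abundant in the developing and adult brain, had 3 probe sets that did not move alike. M91595exon_s_at read 146.4, 111.7 and 66.0 in control, 149.5, 84.4 and 53.9 at 1 day and 159.5, 133.5 and 111.4 at 3 days. In each group array a was the highest and array c the lowest, and within each letter the 3-day array was the highest. The groups overlapped, since control a and 1-day a exceeded 3-day b and c. At 3 days the log2 fold change was 0.36 (-0.52 to 1.24) against control and 0.57 (-0.31 to 1.45) against 1 day. Both were smaller without control c (66.0) and 1-day c (53.9), at 0.06 against control and 0.24 against 1 day. That setting kept 3-day c, the lowest of its group, without its letter partners.

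The differences of M91595exon_s_at at 3 days against 1 day were 0.09, 0.64 and 1.00 in letter pairs a, b and c, and at 3 days against control they were 0.12, 0.25 and 0.72. With the letter as a block, the 3-day against 1-day value of 0.57 ± 0.23 had an unadjusted p of 0.0346 and an adjusted p of 0.770 (limma), and 5.24% of all tested probe sets reached an unadjusted p of 0.05 in that fit. Summed signals of 9 astrocyte markers, of 13 listed, ran from 10818 to 13764 at 3 days, from 6734 to 11742 at 1 day and from 6624 to 11201 in control, with their lowest values on control c and 1-day c. At 3 days against control 6 of the 9 astrocyte markers were higher and 3 lower. Summed signals of 9 markers of the large neurons, of 11 listed, were also lowest on control c (6087) and 1-day c (6510). They ran from 13502 to 15360 at 3 days, against 6510 to 12357 at 1 day and 6087 to 11614 in control. The sum includes both hormone genes: Avp read 3871 to 5678 at 3 days against 1765 to 2868 in control, and Oxt 3219 to 4356 against 208 to 3074. A sum without both was not taken. At 3 days against control 7 of these 9 markers were higher and 2 lower, Gal (-0.26) and Scg2 (-0.04). No marker of either list was at 0 on any array, and their part in the Igfbp2 signal was not tested. Summed signals of 19 meningeal and choroid plexus markers, of 23 listed, ran from 1253 to 1515 at 3 days, from 932 to 1637 at 1 day and from 1396 to 1454 in control, and overlapped between the groups.

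J04486_at, the second tested Igfbp2 probe set, read 23.4, 61.2 and 43.8 in control, 60.1, 39.6 and 53.7 at 1 day and 34.4, 45.2 and 35.4 at 3 days. The control arrays held both the highest and the lowest value. Its log2 fold change was 0.31 at 1 day (-0.54 to 1.15) and -0.07 at 3 days (-0.91 to 0.78) against control, and -0.37 at 3 days against 1 day (-1.22 to 0.47). Without control c and 1-day c the 3-day value against control was -0.0069. The 3-day against 1-day value has the opposite sign to that of M91595exon_s_at, and both intervals include 0.

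For Igfbp5, a binding protein that also attaches to extracellular matrix, the tested probe set was the most variable of the family. The signals of rc_AI029920_s_at were 10.3, 50.5 and 30.2 in control, 37.9, 60.1 and 4.6 at 1 day and 21.5, 9.7 and 25 at 3 days. The highest and lowest arrays both belonged to the 1-day group. Its log2 fold changes were -0.07 (-1.78 to 1.65) at 1 day and -0.47 (-2.18 to 1.25) at 3 days against control, and the 1-day value was 0.89 without control c and 1-day c. Its residual SD of 1.10 was at the 94.8th percentile of all tested probe sets.

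The spread within groups therefore differed widely between members. Igf1r M27293_s_at had a residual SD of 1.02, at the 92.5th percentile. The Igf1 probe sets lay at the 66.8th to 73.4th percentile and Igf2 M17960_g_at and M17960_at at the 52.1st and 62.1st. Igfbp2 J04486_at and M91595exon_s_at were at the 39.3rd and 58.0th percentile and Igf1r L29232_at at the 41.0th. Igf2 X17012mRNA_s_at, with a residual SD of 0.22, was at the 6.73rd percentile, so of the tested members the statements on Igfbp6 and on this Igf2 probe set rest on the least spread.

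**Figure D3:**
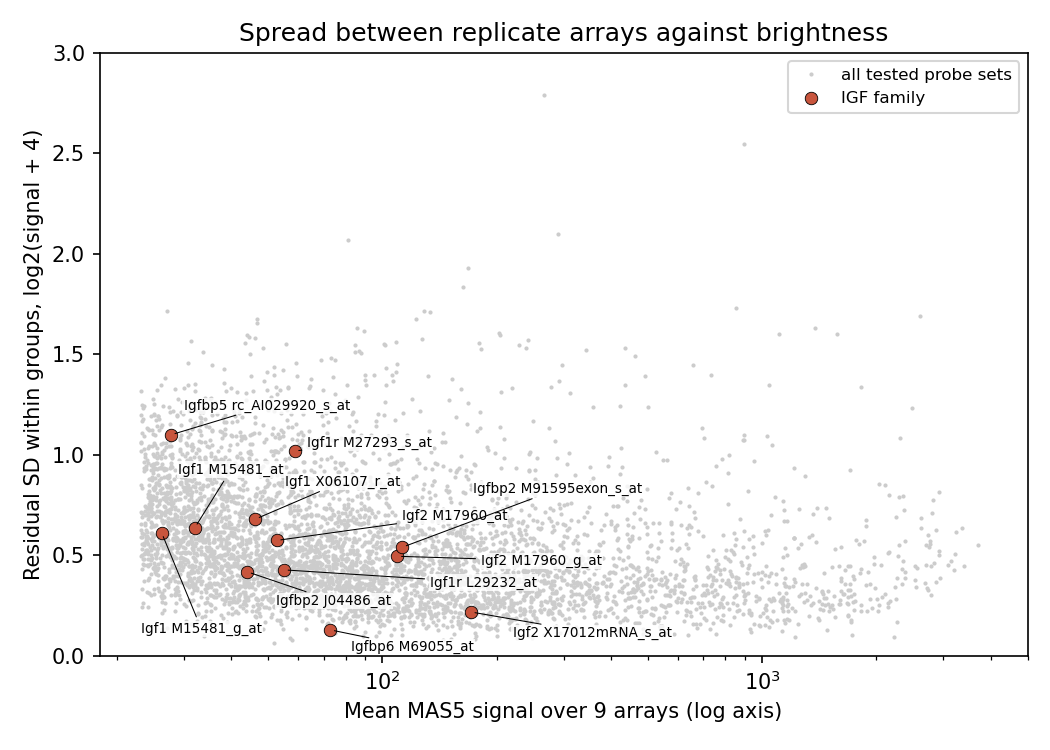
Residual SD within groups on the log2(signal + 4) scale against mean MAS5 signal over 9 arrays (log axis) for all 5247 tested probe sets (grey) and the 12 of the IGF family (red, named). Igfbp6 lies near the bottom with an SD of 0.13, and Igfbp5 and Igf1r M27293_s_at lie highest of the family with 1.10 and 1.02.

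The other 11 probe sets of the family were under the filter and were not tested, and whether their signal exceeds nonspecific binding is not known here, since detection calls were not used. They include every probe set of Igfbp1 and Igfbp3. At 1 day against control, 0 of the 11 had groups that did not overlap, against 5.41% of the 3493 probe sets under the filter. For 3 days against control, 3 of the 11 did not overlap, against 6.33%, and at 3 days against 1 day 0 of the 11, against 5.75%. The 3 were 1 probe set each of Igfbp2, Igfbp5 and Igf1.

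The dim Igfbp2 probe set separated the 3-day from the control arrays. A09811cds_s_at read 8.6, 8.1 and 4.5 on the 3-day arrays, against 24.2, 16.7 and 28.0 on the control arrays, and 10.6, 17.8 and 4.3 at 1 day. All 3 control arrays were above every 3-day array, and the 1-day arrays lay across both. The log2 fold change at 3 days against control was -1.28, with -1.16, -0.77 and -1.91 in letter pairs a, b and c. In a fit without the filter its unadjusted p was 0.0217 and its adjusted p 1.00 (limma), and 1.86% of all 8740 probe sets reached an unadjusted p of 0.05 there. The 2 brighter probe sets of the same gene stood at 0.36 and -0.07 in this comparison, so the difference was not shared.

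The dim Igfbp5 probe set behaved in a similar way. M62781_at read 12.0, 8.2 and 4.6 on the 3-day arrays, against 29.5, 13.2 and 21.8 on the control arrays, and 15.5, 13.0 and 9.8 at 1 day. Every 3-day array was below every control array, with control b only slightly above 3-day a. The log2 fold change at 3 days against control was -1.05, with -1.07, -0.50 and -1.58 in the letter pairs, and without the filter the unadjusted p was 0.0448 and the adjusted p 1.00 (limma). The tested Igfbp5 probe set gave -0.47 with overlapping groups, and the third, rc_AI070577_at, read at most 10.0 on any array. Summed signals of 14 vascular and blood markers, of 21 listed, were also lower at 3 days, 1465 to 1739 against 2106 to 2235 in control, with no marker at 0. That difference was carried by Hbb, a globin gene of red blood cells, which read 836 to 1136 at 3 days, against 1564 to 1653 in control. Without Hbb the sum of the other 13 markers overlapped, at 505 to 629 at 3 days against 528 to 581 in control. The part of Hbb in the Igfbp5 and Igfbp2 values was not tested.

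Igfbp3, the main IGF carrier of the blood together with the acid-labile subunit, was dim in both of its probe sets and higher at 1 day than in control in each letter pair. M31837_at read 23.0, 9.2 and 18.2 on the 1-day arrays, against 12.6, 4.8 and 10.3 on the control arrays, and 27.7, 7.8 and 15.5 at 3 days. In every group array b was the lowest and array a the highest, so the groups overlapped although the letter pairs differed at 1 day by 0.70, 0.58 and 0.63. The second probe set, rc_AI009405_s_at, read 19.4, 6.9 and 10.1 on the 1-day arrays, against 14.5, 3.1 and 3.4 on the control arrays, and 4.6, 13.0 and 12.7 at 3 days. Its letter pairs differed at 1 day by 0.34, 0.62 and 0.93, while at 3 days array a was below its control. The mean log2 differences at 1 day against control were 0.64 for M31837_at and 0.63 for rc_AI009405_s_at. In the fit without the filter their unadjusted p-values were 0.247 and 0.256, with an adjusted p of 1.00 each (limma).

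A single sign in all 3 letter pairs was common in these data. At 1 day against control it was found in 2 of the 12 tested members against 26.1% of all tested probe sets, and in 4 of the 11 under the filter against 24.6%. For 3 days against control the counts were 3 of 12 against 30.1% and 6 of 11 against 25%, and at 3 days against 1 day 2 of 12 against 25.5% and 1 of 11 against 21.6%. Summed signals of 11 microglia markers, of 15 listed, were higher at 1 day (1663 to 2175) and at 3 days (1763 to 1771) than in control (1446 to 1523), and the vascular sum was higher at 1 day (2307 to 3042) than in control (2106 to 2235). Without Ctss, its brightest gene, the microglia sum overlapped at 1 day (471 to 687, against 419 to 546 in control) and did not at 3 days (559 to 598). Of the 6 tested microglia markers 5 were higher and 1 lower (Cd14, -0.32) at 1 day against control, and 6 were higher at 3 days. Of the dim ones, Aif1 (mean 14.5 at 3 days, 24.9 in control), Itgam (10.9, 14.7), Cd74 (12.5, 13.2) and Csf1r (9.67, 10.1) were lower. Fcgr2b (13.0, 7.1) was higher. Without Hbb the vascular sum at 1 day was 610 to 677, against 528 to 581 in control. Of the 9 tested vascular and blood markers 6 were higher and 3 lower at 1 day against control. The lower were Flt1 (-0.42), Pdgfrb (-0.28) and Pecam1 (-0.10). No marker of either list was at 0, and their part in the Igfbp3 values was not tested.

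**Figure D4:**
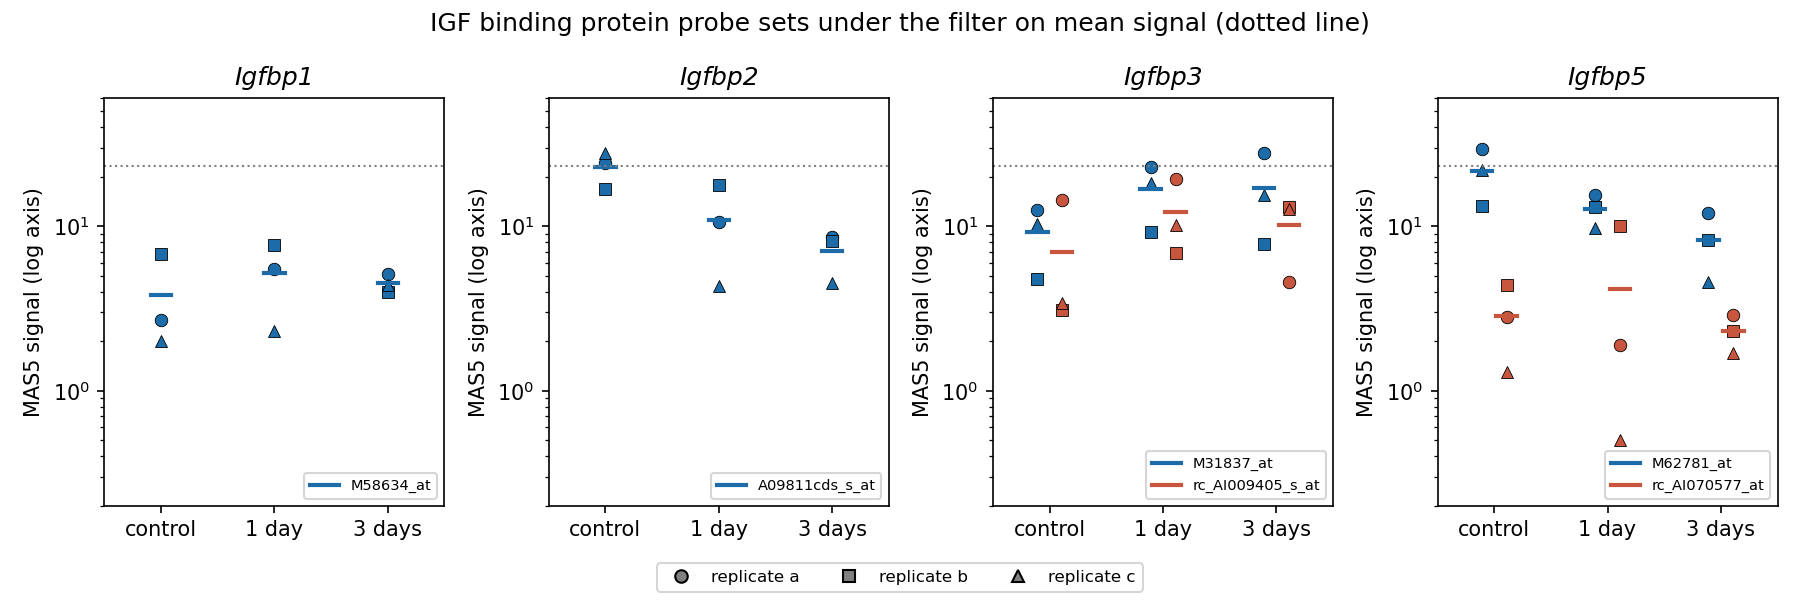
MAS5 signal (log axis) of the binding protein probe sets under the filter on control, 1-day and 3-day arrays, with symbols for replicates a, b and c and bars for group means (n = 3). The dotted line is the filter at 23.1. The 3-day arrays of Igfbp2 A09811cds_s_at and Igfbp5 M62781_at lie below all control arrays, and both Igfbp3 probe sets overlap between groups.

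The remaining dim members were low on most arrays, with single higher readings. Igfbp1, a binding protein made mainly by the liver, read 2.7, 6.8 and 2.0 in control, 5.5, 7.7 and 2.3 at 1 day and 5.1, 4.0 and 4.4 at 3 days, where the 10th percentile of all deposited signals is 3.4. The Igf1 probe set X06107_i_at read 3.3, 5.6 and 5.1 on the 3-day arrays, against 3.0, 1.8 and 1.5 on the control arrays, and 1.1, 6.5 and 15.9 at 1 day. The 3-day and control arrays did not overlap, but their 6 values were all within a few units of that percentile. The other dim Igf1 probe set, D00698_s_at, ranged from 1.3 to 14.7. The dim Igf2 probe sets ranged from 2.7 to 43.8 for X16703_i_at, with the highest on 1-day b, from 3.5 to 17.8 for E00988mRNA_s_at and from 2.0 to 17.0 for X16703_r_at, and all of these overlapped between groups.

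The genes around the family were taken from 4 lists of 100 genes. The first holds receptors and ligands of the insulin, growth hormone and IGF systems. It also holds Ghrh and Ghrhr of growth hormone release, the prolactin receptor Prlr and the acid-labile subunit Igfals. The last holds signalling downstream of the receptors. The others hold proteins related to the binding proteins and proteases that cut them. Of the 100 genes, 68 have a probe set with 1 symbol and 52 were tested by their brightest one. At 1 day against control 26 were higher and 26 lower, and the median log2 fold change was -0.01. In 3-day against control rats 30 were higher and 22 lower (median 0.10), and at 3 days against 1 day 31 were higher and 21 lower (median 0.06). None of the 52 passed the adjusted threshold in any comparison. At an unadjusted p of 0.05 the counts were 0 at 1 day against control (background 1.01%), 1 at 3 days against control (1.72%) and 1 at 3 days against 1 day (1.83%). The arrays of the groups compared did not overlap for 0 genes (background 4.21%), 2 genes (7.74%) and 1 gene (5.72%) in the same comparisons, so these counts were near or under the background.

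By list, 9 genes of the first list were tested. At 3 days against control 7 were higher and 2 lower, with a median of 0.22. The higher were Ins1, Ins2, Insrr, Ghrh, Ghrhr, Igfals and Prlr. Igf2r, the receptor that clears IGF2, was among the lower: it read 11.9, 42.9 and 15.5 at 3 days, against 42.3, 53.1 and 58.1 in control, and 10.5, 67.3 and 37.6 at 1 day. The groups overlapped through 3-day b, and the difference at 3 days against control was -1.17 ± 0.61 (SE), with an adjusted p of 1.00 (limma). Insr, the insulin receptor gene, read 41.4, 10.4 and 10.9 at 3 days, against 54.5, 8.5 and 20.2 in control, a difference of -0.29 ± 0.75. Array a was far above b and c of Insr in both of these groups.

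Of the 8 tested proteases 6 were higher and 2 lower at 3 days against control. Mmp2, a matrix metalloproteinase that cuts several binding proteins, read 60.7, 80.2 and 73.9 at 3 days, 40.2, 14.5 and 38.4 at 1 day and 39.8, 51.0 and 42.0 in control. Its 3-day arrays were above all others, by 0.65 ± 0.39 against control and by 1.20 ± 0.39 against 1 day on the log2 scale, with adjusted p-values of 1.00 and 0.998 (limma). The 1-day group was wide because 1-day b was low. At 1 day against control the smallest unadjusted p-values of the lists belonged to Ptpn11, a phosphatase of the receptor pathway, at 1.16 ± 0.64, to Mmp2 at -0.56 ± 0.39 and to Mmp3, another metalloproteinase, at 0.67 ± 0.47, each with an adjusted p of 1.00 (limma).

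Of the signalling list 35 genes were tested, 17 higher and 18 lower at 3 days against control, with a median of -0.02. This list also holds genes of growth hormone and cytokine signalling, such as Jak2, Stat5b and Cish. Cish, an inhibitor of cytokine and growth hormone receptor signalling, had the smallest unadjusted p of the lists in this comparison. It read 49.1, 50.2 and 30.0 at 3 days, 31.9, 33.8 and 14.4 at 1 day and 21.3, 23.9 and 7.2 in control. Every 3-day array exceeded every control array, by 1.21 ± 0.51 with an adjusted p of 1.00 (limma), and array c was the lowest of each group. Gsk3a, a kinase inhibited by the pathway, differed by 0.41 ± 0.27 at 3 days against 1 day, with an adjusted p of 0.998 (limma). Of the 9 listed proteins related to the binding proteins, 2 had a probe set and 0 were tested.

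For the 3 brightest genes of the family, the genes with the most similar pattern over the 9 arrays were sought among the 3183 other tested genes, by Pearson's r on the log2 scale. Igf2 X17012mRNA_s_at was most like Mboat7 (r = 0.91), Ciao1 (r = 0.88) and Cyba (r = 0.88). Igfbp2 M91595exon_s_at was most like Sprr1a (r = 0.96), Slk (r = 0.94) and C5ar1 (r = 0.94), and 16 genes exceeded an r of 0.9 with it, against 1 for Igf2 and 1 for Igfbp6. Igfbp6 M69055_at was most like Ighvl1 (r = 0.93), Zc3h4 (r = 0.87) and Cck (r = 0.84). These are the highest of 3183 values from 9 arrays that share their letters and scaling, and they are given as a description of these arrays.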

How the data were processed

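The authors deposited linear intensity values from a rat Affymetrix array. The submitters' processing notes name MAS5, with no version. Each array's mean in the deposited table, trimmed by 2% at each end, is 100.1, and 15 values are 0. The table holds 8799 probe sets, 59 of them array controls. All 23 member probe sets matched a RefSeq gene (GRCr8) by gene ID, and 0 symbols changed. Replicates, 3 per group, limit the precision.

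From these values log2(signal + 4) was fitted with limma 3.58.1 in R 4.3.3: 3 group means over 9 arrays, 6 residual degrees of freedom, moderated two-sided tests with an intensity trend and Benjamini-Hochberg adjustment over the 5247 tested probe sets. Figures used Python 3.11.15 and matplotlib 3.10.9. The script was tested on simulated data with independent noise on each array. Those data held no pairing of arrays by letter, so they do not show how the fit behaves with it.

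The titles' letters pair arrays across groups: after subtraction of group means, the 9 same-letter pairs correlated with r from 0.17 to 0.47, and the 18 other pairs with r from -0.33 to 0.12. The labels do not say what a letter stands for. The fit with the letter as a block keeps 4 degrees of freedom, with a median residual SD of 0.36, against 0.48 without it.

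Named genes are all members, and of the pathway lists the 3 with the smallest p per comparison plus Insr and Igf2r. The brightest probe set stands for a gene outside the family. The members and lists were chosen with earlier results of these data known. Alternatives were pseudocounts of 1 and 16, quantile normalization, no filter, filtering at the 60th percentile, no intensity trend, the block, each array left out, control c and 1-day c left out together and, added after seeing the data, no filter with the block.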

Additional observations from a re-analysis of the deposited data

How the results depend on the processing

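The count of probe sets called was 0 in each comparison and in the F test under all 18 alternatives. Of 699 values of members under alternatives, 645 kept their direction and 54 turned it, all in probe sets that no fit called. Many of the 699 could not turn. No filter, the higher filter, no intensity trend and the block leave a fold change as it is. So does leaving out an array of the group not compared. The smallest adjusted p of a member was 0.770 and the smallest unadjusted p 0.0212 (limma). With the replicate block as the pairing of letters, no call changed, and Igfbp2 M91595exon_s_at at 3 days against 1 day was 0.57 with an adjusted p of 0.770. No filter together with the replicate block, an alternative chosen after seeing the data, gave Igfbp2 A09811cds_s_at and Igfbp5 M62781_at an adjusted p of 0.952 each at 3 days against control. Marker sums were also taken without each list's brightest gene, an alternative chosen after seeing the data. Scaling moved the median of all probe sets by less than the 0.1 at which a shift would be reported.

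Without control c and 1-day c, the log2 fold change at 1 day against control was -0.28 for M15481_at, 0.33 for M27293_s_at, 0.89 for rc_AI029920_s_at, 0.28 for X06107_r_at and 0.11 for X17012mRNA_s_at. At 3 days against control it was -0.090 for L29232_at and 0.067 for X17012mRNA_s_at, and at 3 days against 1 day -0.81 for M27293_s_at and -0.23 for X06107_r_at. Quantile normalization gave -0.025 for M15481_at and -0.015 for M17960_g_at at 1 day and -0.0053 for M27293_s_at at 3 days against 1 day. A pseudocount of 1 gave -0.00027 for M17960_g_at at 1 day, and one of 16 gave 0.022 for rc_AI029920_s_at at 1 day and -0.027 for M27293_s_at at 3 days against 1 day. The cause of these turns was not tested.

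Leaving out 1 array at a time gave these ranges where the sign turned. At 1 day against control they were -0.037 to 0.59 for J04486_at, -0.044 to 0.40 for L29232_at, -0.35 to 0.37 for M15481_at, -0.18 to 0.27 for M17960_g_at, -0.77 to 0.73 for M27293_s_at, -0.58 to 0.13 for M91595exon_s_at, -0.65 to 0.79 for rc_AI029920_s_at, -0.45 to 0.53 for X06107_r_at and -0.15 to 0.18 for X17012mRNA_s_at. At 3 days against control they were -0.41 to 0.22 for J04486_at, -0.090 to 0.38 for L29232_at, -0.043 to 0.71 for M15481_g_at, -0.48 to 0.066 for M17960_g_at, -0.48 to 0.17 for M27293_s_at and -0.26 to 0.067 for X17012mRNA_s_at. At 3 days against 1 day they were -0.26 to 0.19 for L29232_at, -0.35 to 0.34 for M15481_g_at, -0.48 to 0.066 for M17960_g_at, -0.81 to 0.69 for M27293_s_at, -1.26 to 0.19 for rc_AI029920_s_at and -0.23 to 0.76 for X06107_r_at.

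With 3 arrays a group and a median standard error of 0.42, changes of most members were not detectable unless they were large. At 3 days against control the interval of Igf2 M17960_at, with a standard error of 0.44, ran from -0.33 to 1.62. It ran from -1.57 to 1.42 for Igf1r M27293_s_at and from -2.18 to 1.25 for Igfbp5 rc_AI029920_s_at. The narrowest, of Igf2 X17012mRNA_s_at, ran from -0.68 to 0.42. The absence of calls does not exclude changes within these intervals. Dim signals may hold nonspecific binding, and detection calls were not used.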

Other observations

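The binding protein genes Igfbp2 and Igfbp5 are neighbours among the protein-coding genes of the RefSeq annotation (GRCr8), as are Igfbp1 and Igfbp3. One dim probe set of each of Igfbp2 and Igfbp5 read lower on all 3-day than on all control arrays, with log2 fold changes of -1.28 and -1.05, while the brightest probe set of Igfbp2 stood at 0.36 and that of Igfbp5 at -0.47. Both dim Igfbp3 probe sets were higher at 1 day against control in each letter pair, by means of 0.64 and 0.63. The Igfbp1 probe set differed by 0.23, but it read only 2.0 to 7.7 and its groups overlapped. Whether neighbouring genes change together was not tested. These probe sets were singled out after their values were seen.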
